A study of Macaca mulatta with 6 samples.

Results

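The GADD45 family is described here in the retinas of 3 adult male rhesus macaques in which 1 intraorbital optic nerve had been irradiated with a gamma knife. The treated retinas lay on the side of the irradiated nerve, which was prescribed 15 Gy, and the control retinas were the opposite retinas of the same animals, whose nerves were not targeted. Both groups were collected 24 h after the procedure, both shared the anesthesia, and both eyes received some stray dose, which was higher on the treated side. Each group had 3 retinas, and the temporal part of each neural retina, without pigment epithelium, was hybridized to an array of its own. The family was taken as every probe set of that array (Affymetrix Rhesus Macaque, 1 color, several short probes per probe set) whose gene symbol was GADD45A, GADD45B, GADD45G or GADD45GIP1. All 4 genes were found, out of 14132 named genes, and they had 8 of the 52024 probe sets: 3 for GADD45A, 3 for GADD45B and 1 each for GADD45G and GADD45GIP1.

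GADD45A, GADD45B and GADD45G are paralogs that encode small acidic nuclear proteins of closely related sequence. They have no known enzyme activity and act by binding other proteins: PCNA and CDKN1A (p21) in DNA repair and cell cycle arrest, the CDK1 and cyclin B1 complex at the G2/M boundary, and the kinase MAP3K4, which passes stress signals on to the p38 and JNK kinases. Their inducers differ. GADD45A is the classical p53 target that answers ionizing radiation, GADD45B is known for induction by NF-kB, TGF-beta and cytokines and in mouse neurons by activity, and GADD45G for induction by cytokines. GADD45GIP1 (also CRIF1) is not a paralog: it was named for binding the GADD45 proteins, and it is a component of the large subunit of the mitochondrial ribosome.

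The values are log2 MAS 5.0 signals, in which 1 unit is a doubling. With 6 arrays the spread between animals is known only roughly. Signals under a log2 of 5 scatter widely, and they made up 22.6% to 29.7% of the probe sets on the treated arrays and 22.6% to 25.9% on the control arrays, with the highest share on the treated array of pair 2. None of the 8 family probe sets was under 5 on any array. The tissue label held: the 6 rod photoreceptor genes measured had mean log2 signals between 13.94 and 15.43. The means of the 3 red blood cell genes measured ran from 1.54 (AHSP, a marker of precursors) to 8.27 (HBB, a globin). Those of the 5 pigment epithelium genes measured ran from 5.24 to 10.39, and carryover of blood or pigment epithelium was not tested. Each probe set has its own probes, so levels of different probe sets can be compared only roughly. They serve here to check the tissue and to rank probe sets by brightness, and sums over marker genes are weighted to bright probe sets. Responses are read only from differences between treated and control retinas.

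GADD45B was higher in the treated retina of all 3 pairs by each of its 3 probe sets, as 13.0% of all probe sets were. Its brightest probe set, MmugDNA.30178.1.S1_s_at, had log2 signals of 9.87, 9.92 and 9.05 in the treated retinas of pairs 1 to 3, against 8.25, 7.93 and 7.71 in the control retinas. The lowest treated retina was above the highest control retina, a separation found for 3.11% of all probe sets. The means were 9.61 ± 0.49 in treated retinas and 7.96 ± 0.27 in control retinas (SD, 3 retinas each), a log2 fold change of 1.65 (SE 0.17, 95% interval 1.26 to 2.04, adjusted p = 0.0238 from limma with the pairs as a block). This is a fold of 3.14, and the folds within pairs were 3.09, 3.97 and 2.54. By p the probe set ranked 28 of 52024, of which 0.110% were called higher at an adjusted p under 0.05. The call, but not the log2 fold change, was lost without replicate 1 (1.66, adjusted p = 0.186), where calls over all probe sets fell from 58 to 17. The call also depended on the setting of the fit: without the pairing the log2 fold change was 1.65 (adjusted p = 0.617).

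The other 2 probe sets of GADD45B moved the same way but did not pass the test over all probe sets. MmugDNA.30178.1.S1_at read 9.44, 8.82 and 9.37 in the treated retinas and 8.77, 7.72 and 7.77 in the control retinas, and MmugDNA.23069.1.S1_at read 8.88, 8.58 and 8.0 in the treated retinas and 7.37, 6.71 and 7.20 in the control retinas. For both, the treated and control retinas did not overlap, although the lowest treated retina of the first lay just above the control retina of pair 1. The log2 fold changes were 1.12 (SE 0.20, adjusted p = 0.200) and 1.39 (SE 0.25, adjusted p = 0.220). The first was called without replicate 2 (1.13, adjusted p = 0.0169) and the second without replicate 3 (1.69, adjusted p = 0.0332). Calls over all probe sets rose from 58 to 222 without replicate 2 and to 135 without replicate 3. The probe sets disagreed on which animal responded most. The brightest probe set and MmugDNA.23069.1.S1_at had their largest log2 ratios in pair 2 (1.99 and 1.87) and their smallest in pair 3 (1.34 and 0.80), whereas MmugDNA.30178.1.S1_at had its largest in pair 3 (1.60) and its smallest in pair 1 (0.67). In the array's naming, an identifier that ends in s_at marks a probe set whose probes can match several transcripts, and both probe sets numbered 30178 share 1 design number. Whether the probes of the 3 probe sets overlap was not examined here.

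**Figure D1:**
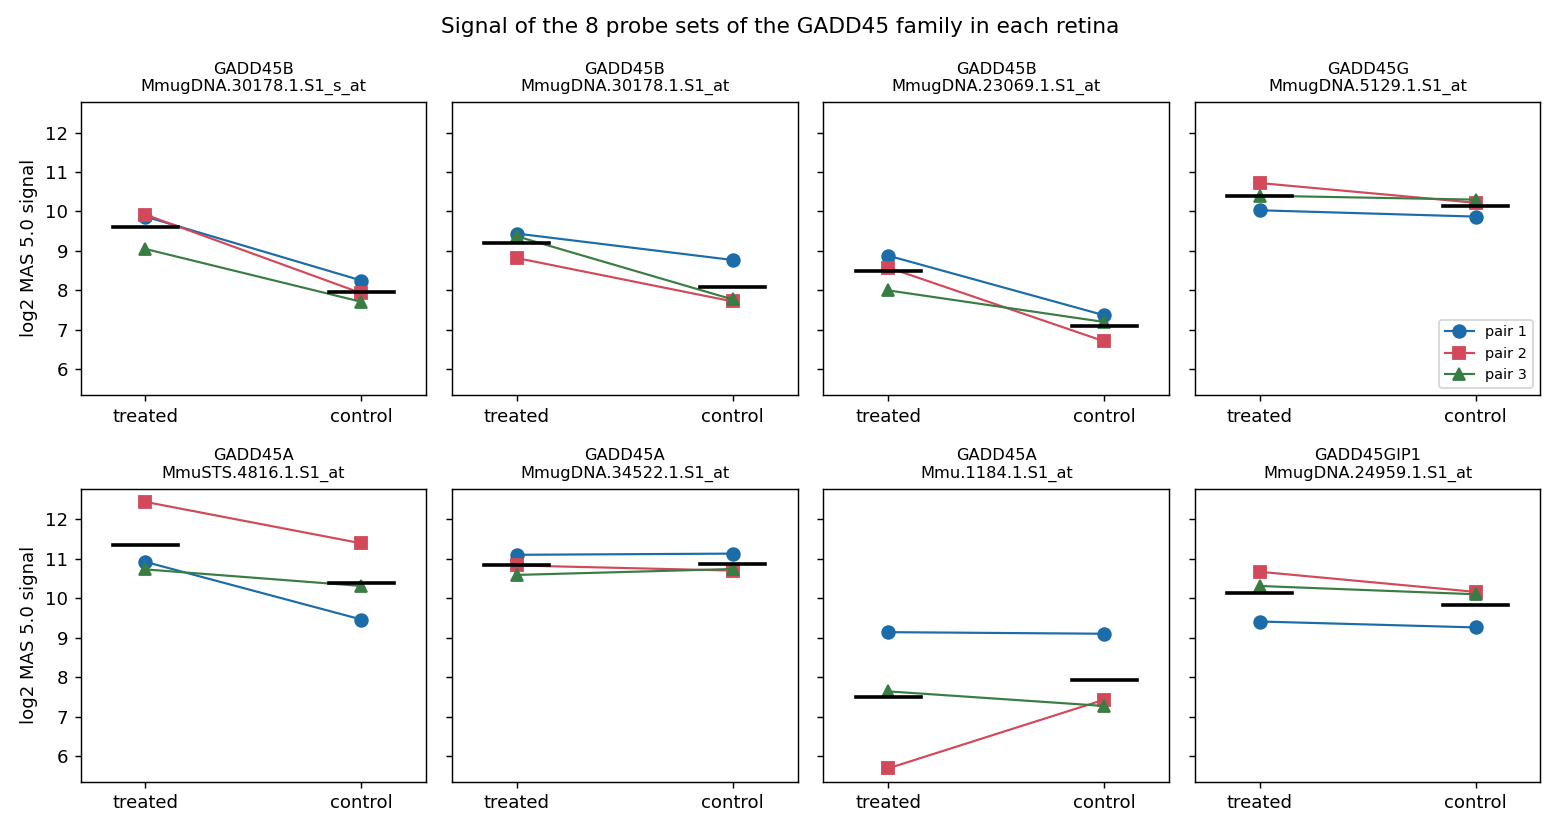
Log2 MAS 5.0 signal (vertical axis) of each of the 8 probe sets in the treated (left) and control (right) retina of each pair. Lines join the 2 retinas of an animal and black bars are group means of 3 retinas. All 3 GADD45B probe sets separate the groups, while the treated mean of GADD45A is above, level with or below the control mean depending on the probe set.

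Signals of some cell type markers also differed between the groups beside GADD45B, without passing the test. All 5 leukocyte genes measured were above 0 (median log2 fold change 0.97), as 55.5% of all named genes were, and 0 were called. Their summed linear signal was 4091 to 12250 in treated retinas and 2003 to 3661 in control retinas. Most of that sum was LYZ, the lysozyme of myeloid cells, at 13.50, 12.17 and 11.87 in treated and 11.63, 11.30 and 10.80 in control retinas. PTPRC, the pan-leukocyte antigen CD45, read 7.13, 7.32 and 7.11 in treated and 6.71, 5.94 and 5.99 in control retinas. MS4A1, also on this list, was higher in only 1 of 3 pairs (log2 fold change 0.28, SE 1.12). Of 7 microglial genes, 5 were above 0, and the median of the list was 0.61. Before adjustment, 3 passed p under 0.05 as higher by limma, against 5.02% of all named genes, and 0 as lower. The 3 were AIF1 (0.78), TYROBP (0.64) and C1QA (0.61), each higher in all 3 pairs. P2RY12 (−0.27) and ITGAM (−0.43) were lower in all 3 pairs. Sums over the microglial genes were 1596 to 1835 in treated and 1174 to 1534 in control retinas. Among the retinal neurons, by brightest probe sets, the 6 rod genes all had log2 fold changes under 0 (median −0.17, range −0.34 to −0.0003). So did the 4 horizontal cell genes (median −0.30, range −2.92 to −0.063). Of 8 ganglion cell genes listed, the 3 measured were all above 0 (median 0.36, range 0.097 to 0.41). The 6 Muller glia genes were split, with 3 above 0 (median −0.14): SLC1A3 stood at 0.58, RLBP1 at −0.45 and KCNJ10 at −0.54. Medians of the cone, bipolar, amacrine and endothelial genes lay between −0.094 and 0.098. None of these markers was at the floor of 0 on any array, and their part in the GADD45B difference was not tested. In such bulk tissue, for every gene described here, a changed number of cells of a type and a changed amount of RNA per cell cannot be told apart.

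GADD45A, the paralog best known as a target of p53, was not called by any of its 3 probe sets, which had log2 fold changes of 0.98, −0.021 and −0.45. MmuSTS.4816.1.S1_at, the brightest of them with a mean log2 signal of 10.87, read 10.92, 12.44 and 10.73 in the treated retinas and 9.46, 11.39 and 10.31 in the control retinas. It was higher in the treated retina of each pair, by log2 ratios of 1.47, 1.05 and 0.42, but the groups overlapped. Its log2 fold change was 0.98 (SE 0.18, 95% interval 0.56 to 1.40), which did not pass the test (adjusted p = 0.231 from limma). It was called without replicate 2 (0.94, adjusted p = 0.0217) and without replicate 3 (1.26, adjusted p = 0.00467). In these fits calls over all probe sets also rose, from 58 to 222 and to 135. The other GADD45A probe set of like brightness, MmugDNA.34522.1.S1_at with a mean of 10.85, read 11.10, 10.83 and 10.59 in the treated retinas and 11.13, 10.70 and 10.74 in the control retinas. No change was detected by it, and its interval was narrow (log2 fold change −0.021, SE 0.10, 95% interval −0.25 to 0.21, adjusted p = 0.975). Its sign turned to 0.076 when the arrays were centred on their medians.

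The dimmest GADD45A probe set, Mmu.1184.1.S1_at, was the least steady of the family. It read 9.14, 5.69 and 7.64 in the treated retinas and 9.10, 7.43 and 7.27 in the control retinas. The treated retina of pair 2 was 1.75 below its control retina on the log2 scale, while pairs 1 and 3 had ratios of 0.035 and 0.37. Its log2 fold change of −0.45 (SE 0.39, adjusted p = 0.818) turned to 0.20 without replicate 2. Between the 2 bright GADD45A probe sets the log2 ratio differed by 1.50, 0.93 and 0.58 in pairs 1 to 3, a mean of 1.00 ± 0.47 (SD, 3 pairs; p = 0.25, exact sign-flip test, two-sided, the smallest p that 3 pairs allow). The choice of probe set therefore decides whether GADD45A is read as higher: the mean of all its probe sets gave a log2 fold change of 0.17 (adjusted p = 0.828 from limma). Where on the GADD45A transcript each probe set lies was not examined here.

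GADD45G, the cytokine-induced paralog, and GADD45GIP1, the mitochondrial ribosome component, had small differences in the same direction. GADD45G (MmugDNA.5129.1.S1_at) read 10.03, 10.72 and 10.40 in the treated retinas and 9.87, 10.22 and 10.30 in the control retinas. It was higher by log2 ratios of 0.16, 0.50 and 0.10 within pairs, with overlapping groups, and its log2 fold change of 0.25 did not pass the test (SE 0.12, 95% interval −0.018 to 0.53, adjusted p = 0.751 from limma). Without replicate 2 it was 0.13. GADD45GIP1 (MmugDNA.24959.1.S1_at) read 9.41, 10.67 and 10.31 in the treated retinas and 9.26, 10.16 and 10.10 in the control retinas. Its ratios of 0.14, 0.51 and 0.21 gave a log2 fold change of 0.29 (SE 0.12, 95% interval 0.013 to 0.56, adjusted p = 0.734). For both genes pair 1 had the lowest signals and pair 2 had the largest ratio.

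**Figure D2:**
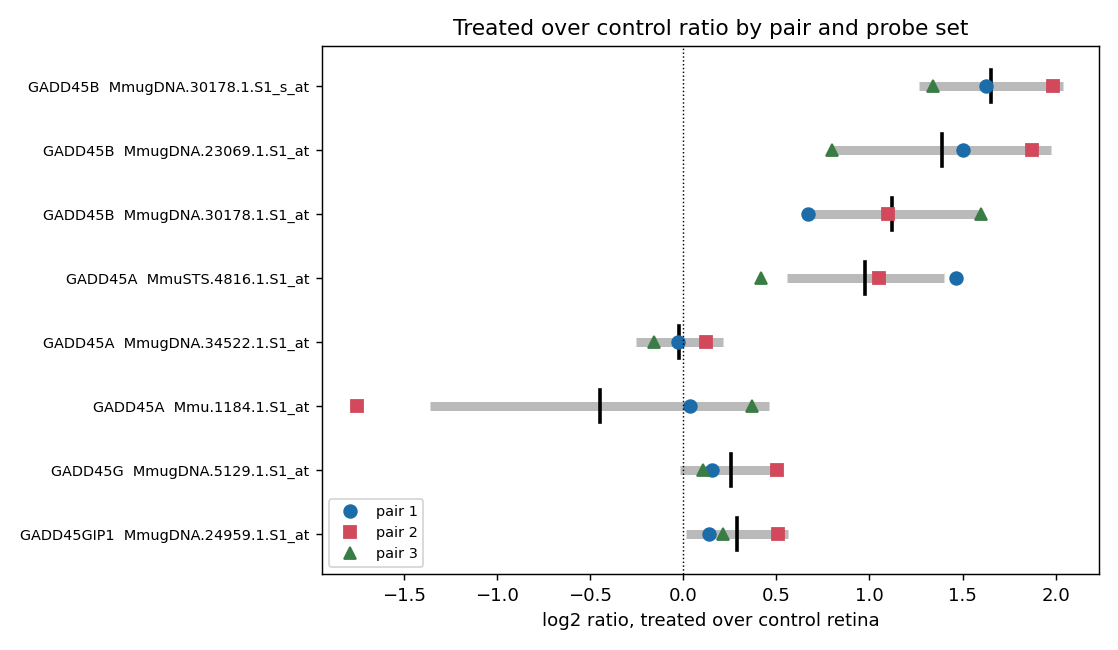
Log2 ratio of treated over control retina (horizontal axis) for each probe set and pair, with the fitted log2 fold change (black tick) and its 95% interval from limma (gray bar). The 3 GADD45B probe sets lie between 0.67 and 1.99 in every pair, whereas those of GADD45A range from −1.75 to 1.47.

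Counted over the family, 1 of the 8 probe sets was called higher at an adjusted p under 0.05 and 0 were called lower, where 0.110% of all 52024 probe sets were called higher. Before adjustment, 5 of the 8 were higher with p under 0.05 (all 3 of GADD45B, the brightest of GADD45A, and GADD45GIP1) and 0 were lower, against 2.97% higher and 3.77% lower among all probe sets. The treated retinas were all above the control retinas for 3 of the 8, all of GADD45B, against 3.11% of all probe sets, and 6 of the 8 were higher in all 3 pairs, against 13.0%. By the methods' t-test 2 of the 8 passed as higher when p under 0.05 was asked for, both of GADD45B, against 2.68% of all probe sets, and 0 after Benjamini-Hochberg adjustment. Several of these probe sets are assigned to the same gene, so these counts are of probe sets and not of separate genes.

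The response of GADD45B was then set against that of each other member within the pairs, as the difference of their log2 ratios. By the brightest probe sets, the response of GADD45B was larger than that of GADD45G by 1.47, 1.48 and 1.24 in pairs 1 to 3, a mean of 1.40 ± 0.14 (SD, 3 pairs). It was larger than that of GADD45GIP1 by 1.49, 1.48 and 1.13, a mean of 1.36 ± 0.20. Against the brightest GADD45A probe set the margin was 0.16, 0.94 and 0.92, a mean of 0.67 ± 0.44, so that in pair 1 both genes were nearly equally higher. Against the other GADD45A probe sets the mean margins were 1.67 ± 0.18 (MmugDNA.34522.1.S1_at) and 2.10 ± 1.45 (Mmu.1184.1.S1_at), the last carried by 3.74 in pair 2. Each of these 5 comparisons gave p = 0.25 by the exact sign-flip test (two-sided), which is the smallest p that 3 pairs allow.

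A limma fit on the within-array differences, which borrows the spread of other probe sets, gave intervals for the same margins. They were 0.97 to 1.83 for GADD45G (adjusted p = 1.1e-05), 0.92 to 1.81 for GADD45GIP1 (adjusted p = 2.0e-05) and 0.23 to 1.12 for the brightest GADD45A probe set (adjusted p = 0.00916). In this fit 75.0% of the other probe sets on the array had a response smaller than that of GADD45B by a margin that passed an adjusted p under 0.05, and all of these differences share the errors of the 1 GADD45B probe set, so a smaller response than that of GADD45B was common on the array. Over the 15 combinations of a GADD45B probe set with a probe set of another member, the mean margin was above 0 in all 15 and the margin was above 0 in all 3 pairs in 14. The exception was MmugDNA.30178.1.S1_at against the brightest GADD45A probe set, with −0.80, 0.052 and 1.18 in pairs 1 to 3 and a mean of 0.14.

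**Figure D3:**
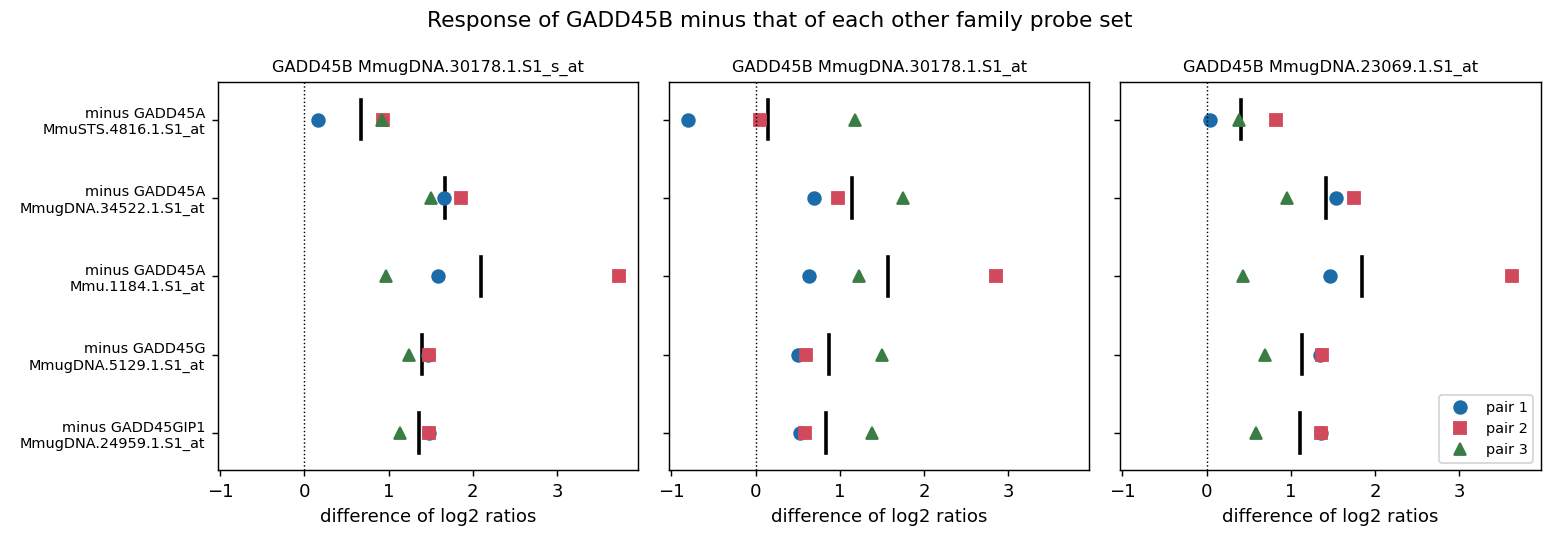
Difference between the log2 ratio of each GADD45B probe set (panels) and that of each other family probe set (rows), by pair, with the mean of 3 pairs as a black tick. Points right of 0 are pairs in which GADD45B responded more. The mean margin over the brightest GADD45A probe set, in the top row, was the smallest in each panel.

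Genes that work with the GADD45 proteins were followed by their brightest probe sets. Among all 14132 named genes, 0.205% were called higher. Before adjustment, p was under 0.05 for 5.02% as higher and for 3.01% as lower. A log2 fold change above 0 was found for 55.5%, and the median was 0.032. Of 12 direct partners measured, 8 were above 0 with a median of 0.062, and 0 were called by limma. Before adjustment, 1 passed p under 0.05 as higher and 1 as lower. The first was CDKN1A, the p21 inhibitor of cyclin-dependent kinases, at 10.05, 10.04 and 9.36 in the treated retinas and 9.65, 9.67 and 8.93 in the control retinas (log2 fold change 0.40, SE 0.11, adjusted p = 0.605). The second was NR4A1, a nuclear receptor that GADD45GIP1 binds, at −0.35 (SE 0.12, adjusted p = 0.716). PCNA, the sliding clamp of DNA replication, stood at 0.20 (SE 0.085, adjusted p = 0.743).

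Transcripts of the cascade below GADD45 showed little difference by their brightest probe sets, and kinase activity was not measured. Other probe sets of these genes ranged from −1.27 (MAPK8) to 0.54 (MAP2K7). Of 14 genes of the p38 and JNK cascade measured, 10 were above 0 with a median of 0.043 (−0.014 without replicate 1, and 0.14 with arrays centred on their medians), and 0 passed p under 0.05 in either direction, adjusted or not. Those with the largest statistics were the transcription factor ATF2 at −0.26 (SE 0.17, adjusted p = 0.769 from limma), the phosphatase DUSP10 at −0.14 (SE 0.11, adjusted p = 0.798) and the kinase MAPKAPK2 at 0.086 (SE 0.10, adjusted p = 0.876). Of 10 genes of DNA demethylation and excision repair, processes in which GADD45A takes part, 6 were above 0 with a median of 0.059 (−0.019 without replicate 2), 0 were called and 1 was lower with p under 0.05 before adjustment. That gene was the dioxygenase TET3 at −0.34 (SE 0.12, adjusted p = 0.716). TAF12, a TFIID subunit, stood at 0.17 (SE 0.11) and ERCC1, an excision repair nuclease subunit, at 0.12 (SE 0.13).

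Of 12 transcription factors that act on GADD45 genes, 5 were above 0 with a median of −0.030, 0 were called and 1 was higher with p under 0.05 before adjustment. It was CEBPB, a factor of inflammatory responses, at 10.37, 11.04 and 9.75 in the treated retinas and 9.71 in all 3 control retinas (log2 fold change 0.68, SE 0.22, adjusted p = 0.676 from limma). MYC, which represses GADD45A in cultured cells, stood at 0.46 (SE 0.21, adjusted p = 0.751) and FOXO1 at −0.26 (SE 0.14, adjusted p = 0.752). This list had a median of 0.068 with arrays centred on their medians and of 0.043 without replicate 3. Without replicate 2 its median was 0.18, and STAT3, the transducer of cytokines of the interleukin-6 family, was called with a log2 fold change of 1.25 (adjusted p = 0.0408). Calls over all probe sets rose from 58 to 222 in that fit. With all pairs STAT3 stood at 0.57 (adjusted p = 0.792).

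The p53 target genes had the highest median of these lists. Of 22 measured, 19 were above 0 with a median of 0.29, where 55.5% of all named genes were above 0. The medians were 0.32, 0.40 and 0.22 in pairs 1 to 3. The adjusted test called 0. Before adjustment 7 passed p under 0.05 as higher, among them CDKN1A, which is also a partner, and 1 as lower. The shares over all named genes were 5.02% higher and 3.01% lower. DDB2, a sensor of DNA damage in excision repair, read 7.99, 8.68 and 8.97 in the treated retinas and 6.93, 6.73 and 7.83 in the control retinas (log2 fold change 1.38, SE 0.24, adjusted p = 0.185 from limma), with all treated retinas above all control retinas. BAX, a promoter of apoptosis at mitochondria, stood at 0.64 (SE 0.13, adjusted p = 0.336) and CCNG1, a cyclin, at 0.46 (SE 0.10, adjusted p = 0.391), both higher in 3 of 3 pairs. The death receptor FAS stood at 1.49 (SE 0.45, adjusted p = 0.654), higher in 3 of 3 pairs, and its 3 other probe sets ranged from 0.051 to 3.57. PHLDA3, an inhibitor of AKT, stood at 1.31 (SE 0.30, adjusted p = 0.416), also higher in 3 of 3 pairs. Lower in the treated retina of all 3 pairs were TP53INP1, TNFRSF10B and AEN. TP53INP1, a stress-induced partner of p53, stood at −2.70 (SE 0.87, adjusted p = 0.676). TNFRSF10B, a receptor of the death ligand TRAIL, stood at −1.51 (SE 0.72, adjusted p = 0.751). Both had some signals under a log2 of 5. AEN stood at −0.31 (SE 0.18, adjusted p = 0.754), with every signal above 5. Of the other genes named for DNA damage inducible transcripts, DDIT3 stood at 0.21 (SE 0.13, adjusted p = 0.754) and DDIT4 at −0.21 (SE 0.14, adjusted p = 0.775).

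GADD45GIP1 was read beside the other proteins of its ribosomal subunit. Of 40 further genes of the mitochondrial large subunit measured, 39 were above 0, where 55.5% of all named genes were, and the median was 0.19. The medians were 0.16, 0.38 and 0.055 in pairs 1 to 3, with pair 2 largest as for GADD45GIP1. The adjusted test called 0. Before adjustment, p was under 0.05 for 5.02% of all named genes as higher and for 3.01% as lower. Of this list, 8 passed as higher and 0 as lower. Among them were MRPL57 at 0.36 (SE 0.10, adjusted p = 0.634 from limma), MRPL20 at 0.35 (SE 0.11, adjusted p = 0.676) and MRPL23 at 0.40 (SE 0.14, adjusted p = 0.716). The 0.29 of GADD45GIP1 lay between the lowest gene of the list at −0.10 and the highest at 0.40. The treated array of pair 2, which had the most probe sets under 5, was also the array with the lowest median log2 signal of the 6 (6.44), and its part in these ratios was not tested on its own. Without pair 2 the list's median was 0.090 and GADD45GIP1 stood at 0.18. With arrays centred on their medians they were 0.29 and 0.39, and with quantile normalization 0.18 and 0.28.

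**Figure D4:**
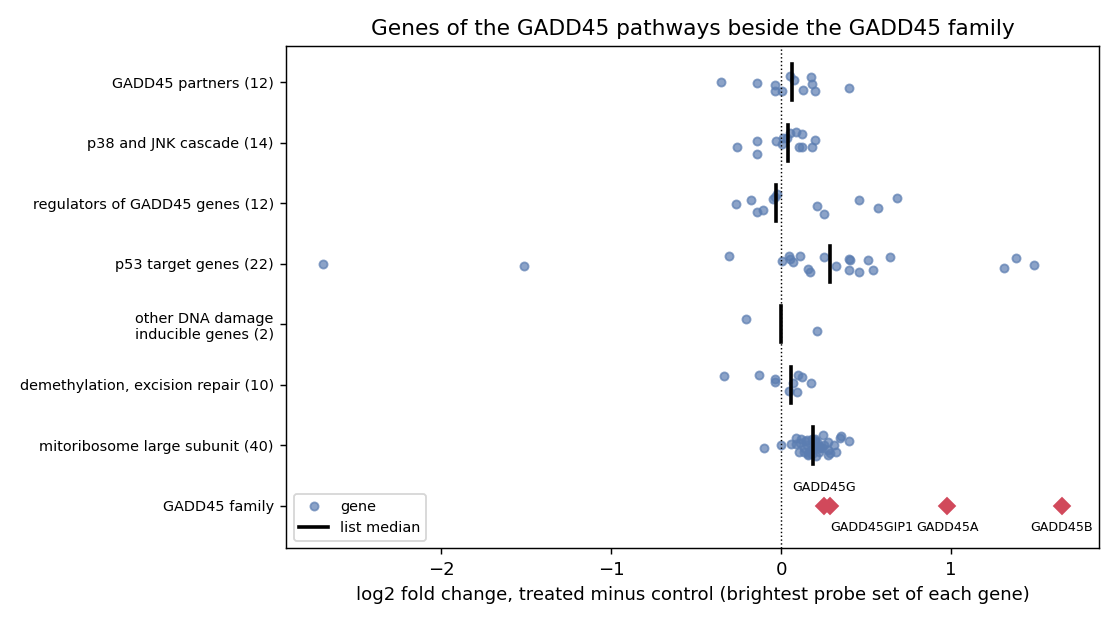
Log2 fold change (treated minus control, horizontal axis) of each measured gene in the 7 pathway lists, with list medians as black ticks, above the brightest probe set of each GADD45 family gene (diamonds). Numbers of measured genes stand in parentheses. By these brightest probe sets GADD45B at 1.65 lies right of every list gene, the highest of which is FAS at 1.49. The other probe sets of FAS, not drawn, ranged from 0.051 to 3.57.

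The genes whose signals followed GADD45B most closely over the 6 retinas were listed by Pearson's r with its brightest probe set, among 9679 genes with a mean signal above the array median. They were IFIH1, a sensor of viral RNA (r of 0.994), BHLHE40, a transcription factor of stress and circadian responses (0.992), KLF6, a Kruppel-like factor (0.989), CCL8, a chemokine for monocytes (0.988), and VTN, the adhesion and plasma protein vitronectin (0.987). IFIH1 read 8.52, 8.47 and 8.08 in the treated retinas and 7.32, 7.20 and 7.02 in the control retinas. KLF6, CCL8 and VTN were called higher, by log2 fold changes of 0.84 (SE 0.10, adjusted p = 0.0450 from limma), 1.97 (SE 0.19, adjusted p = 0.0238) and 1.26 (SE 0.096, adjusted p = 0.0128). IFIH1 (1.17, SE 0.20, adjusted p = 0.163) and BHLHE40 (0.57, SE 0.10, adjusted p = 0.223) were not called. GADD45B separated the groups, so genes picked for a high r with it were likely to differ between treated and control retinas. The brightest probe sets of the other members were less like GADD45B, with r of 0.55 for GADD45A, 0.36 for GADD45G and 0.13 for GADD45GIP1. These correlations are over 6 retinas that share 3 animals and 2 groups, 175 genes had an r above 0.9, and the values are a description.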

How the data were processed

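Total RNA of each temporal retina was labelled with biotin and hybridized to 1 array. The authors computed MAS 5.0 signals in GeneSpring and deposited log2 values, which were used as they stand. The lowest deposited value is 0, the log2 of a floor of 1. The MAS5 version and the places of the probes in the genome are not given in the sources used here, detection calls were not used, and no positions in the genome or sequences are printed.

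The treated minus control difference was fitted with limma 3.58.1 in R 4.3.3 (eBayes with trend, replicate number as a block) over 52024 probe sets, with Benjamini-Hochberg adjustment and a threshold of 0.05. Symbols came from the platform annotation, updated by gene identifier through the gene table of assembly T2T-MMU8v2.0. A gene's brightest probe set is the one with the highest mean signal. Numbers pair the retinas of an animal: arrays of the same number deviated together from their group means (correlations 0.357, 0.137 and 0.161, against −0.243 to 0.104 for other numbers). The fit was tested on simulated data with 52024 probe sets, of which 200 were changed. Of changes of 1 on the log2 scale 19% were recovered, of changes of 2 it was 59%, and 4 unchanged probe sets were called. The simulated noise was normal, with variances drawn from the fit's own trended variance prior, so these data cannot test that prior. Differences between members were tested with an exact sign-flip test over pairs. The alternatives were the fit without pairing, quantile normalization, centring on medians, no trend, a filter or a floor at a log2 of 5, the methods' t-test, gene means, the fit on within-array differences and leaving out each replicate.

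In each list the genes called, or else the 3 with the largest statistic, were named, and some that the rule gives are left out. FAS, LYZ, MS4A1, PHLDA3, PTPRC, STAT3, TNFRSF10B, TP53INP1, AEN, P2RY12, ITGAM, MAPK8 and MAP2K7 were named after their values were seen. The members and lists were chosen with earlier results of these data known. Plots were made in Python 3.11.15 (matplotlib 3.10.9).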

Additional observations from a re-analysis of the deposited data

How the results depend on the processing

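The log2 fold change of the brightest GADD45B probe set stayed between 1.48 and 1.81 when a replicate was left out, and its call ended without replicate 1. The call also ended at a log2 fold change of 1.65 with no replicate block (adjusted p = 0.617 from limma), no trend in the variance prior (adjusted p = 0.854), signals under 5 set to 5 (adjusted p = 0.749) and the adjusted methods' t-test (adjusted p = 0.879), and at 1.39 as the mean of the GADD45B probe sets (adjusted p = 0.0594). Under the first 4 of these, 0 family probe sets and 0 of all probe sets were called, with 2 to 4 of the family and 1275 to 3196 of all under p of 0.05 before adjustment. Leaving out replicates gave 0 to 3 family calls and 17 to 222 over all probe sets, beside 58 with all pairs. The methods' t-test without adjustment gave 2 family calls, 12 in the pathway lists and 2891 in all. Pathway lists had 0 to 1 calls when a replicate was left out. The brightest GADD45A probe set ranged from 0.73 to 1.26 and was called without replicate 2 (adjusted p = 0.0217) and without replicate 3 (adjusted p = 0.00467). MmugDNA.34522.1.S1_at turned to 0.076 with arrays centred on their medians and ranged from −0.093 to 0.046 without a replicate, and Mmu.1184.1.S1_at ranged from −0.86 to 0.20. By the brightest probe sets, the margins of GADD45B were 0.67 over GADD45A, 1.40 over GADD45G and 1.36 over GADD45GIP1. They passed the threshold in the fit on within-array differences, as 75.0% of the other probe sets on the array did. By the exact sign-flip test each had p = 0.25, the smallest that 3 pairs allow. The causes were not tested. GADD45G and GADD45GIP1 kept their direction and stayed uncalled in every setting run.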
